A study of Homo sapiens with 6 samples.

Results

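Glycolysis, glucose transport and pyruvate entry were described through 40 genes of 19775 measured on the arrays. The genes were named by their place in the pathway, as the glucose transporters, the enzymes from hexokinase to lactate dehydrogenase, the enzymes and carriers that take pyruvate into the mitochondrion, and the enzymes that lead into glucose synthesis and glycogen. They comprised 3 glucose transporters, 14 genes of upper glycolysis, 10 of lower glycolysis, 8 of pyruvate entry and 5 of the gluconeogenic and glycogen branch. Each gene was read from the brightest of the probe sets that named it alone, and all 40 had such a probe set. A probe set is the group of short DNA probes on the array that together give 1 value for a transcript.

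The study compared 3 arrays of SNU-449 cells labelled USP48 overexpression with 3 arrays of SNU-449 cells labelled empty vector. SNU-449 is a line derived from a human hepatocellular carcinoma, and USP48 is a protease that removes ubiquitin from proteins. The protocol describes a lentivirus carrying USP48, added at a multiplicity of infection of at least 90 for 24 hours in serum-free medium, followed by 4 to 6 days in complete medium and then by puromycin to obtain stably expressing cells. Both groups shared the cell line, RPMI medium with fetal bovine serum and antibiotics, and the labelling of 6 µg of total RNA per array. The titles of the arrays call the cells transfected, while the protocol describes viral transduction, and the protocol names no virus for the empty vector cells. The age of the cultures was not given. The labels also do not say whether the 3 replicates of a group came from separate cultures, so each p-value reflects how far these arrays scatter, and that scatter may be technical.

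Glycolysis splits glucose into pyruvate in the cytosol and yields ATP. Glucose enters through carriers of the GLUT family, is trapped by hexokinases, and passes the committed step at phosphofructokinase, whose activity is tuned by the bifunctional PFKFB enzymes. Pyruvate is then either reduced to lactate or carried into the mitochondrion, where the pyruvate dehydrogenase complex, held back by the PDK kinases and released by the PDP phosphatases, turns it into acetyl-CoA. Liver cells also run the route backwards to make glucose, and tumours of the liver often keep high glycolysis while losing that route.

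USP48, the gene whose overexpression the labels name, was not called higher in the arrays that carry that label. Its brightest probe set gave log2 values of 7.90, 7.85 and 8.03 in the arrays labelled USP48 overexpression, against 8.11, 8.04 and 8.003 in the empty vector arrays. The groups overlapped, and the difference was -0.13 on the log2 scale (adjusted p = 0.305 by limma, Benjamini-Hochberg over all genes). Of its 4 other probe sets, those at -0.82 and -0.63 were lower past the threshold and those at 0.24 and -0.25 were not past it. Where these probes lie relative to the introduced sequence was not analysed here, so they do not show whether the introduced copy was expressed. Every direction below is therefore that of the arrays labelled USP48 overexpression relative to those labelled empty vector.

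All differences below are log2 values of the USP48 arrays minus the empty vector arrays, and a gene is said to be higher or lower, to have risen or to have fallen, only where the adjusted p was under 0.05. The fit called 29.8% of all genes, 15.7% higher and 14.1% lower, with a median difference over all genes of 0.05. The arrays correlated at 0.996 to 0.998 within a group and at 0.982 to 0.986 between groups. Of 8 hepatocyte markers 0 were called, although TF and CYP3A4 each had another probe set called higher. The means of the 8 markers in the USP48 arrays ran from 2.14 for ALB to 5.85 for CYP3A4. Albumin (ALB), the defining one, averaged 2.14 ± 0.07 in the USP48 arrays and 2.07 ± 0.18 in the empty vector arrays (log2, SD, n = 3 each). Of the 5 epithelial markers, the keratins KRT8 and KRT18 were bright, with means of 10.6 and 11.8 in the USP48 arrays and of 10.9 and 11.8 in the empty vector arrays. KRT19 (2.81 in both groups) and CDH1 (2.57 in the USP48 arrays and 2.95 in the empty vector arrays) were dim. RMA, the processing named for these values, brings the arrays to a like distribution of signal, and the medians of the deposited arrays ran from 3.75 to 3.79. A change in total RNA per cell would therefore not be seen. The lowest values, 0.19 to 0.32 on the log2 scale, are lower than RMA usually gives, so dim values and large differences may carry another background correction. In bulk RNA, fewer cells that express a gene and less of its RNA per cell cannot be told apart.

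Promoters are shown for the called genes with the largest differences, up to 3 in each direction, for which RefSeq gives one: HK2 and PFKFB3, which were higher, and ENO3, PGM1 and PC, which were lower. SLC2A3, which belongs here by its size, is named only. The letters are the 250 bases before the first start listed by RefSeq (GRCh38.p14), written 5′ to 3′ on the strand of the gene. Capitals mark each match, on either strand, to ACGTG or GCGTG, the core letters that hypoxia-inducible factors bind.
HK2 (chr2:74833877-74834126, plus strand): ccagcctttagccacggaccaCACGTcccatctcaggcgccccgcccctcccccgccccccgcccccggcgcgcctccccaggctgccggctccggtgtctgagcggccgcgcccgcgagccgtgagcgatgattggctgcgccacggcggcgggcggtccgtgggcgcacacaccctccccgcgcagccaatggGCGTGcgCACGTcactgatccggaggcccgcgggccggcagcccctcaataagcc
PFKFB3 (chr10:6144671-6144920, plus strand): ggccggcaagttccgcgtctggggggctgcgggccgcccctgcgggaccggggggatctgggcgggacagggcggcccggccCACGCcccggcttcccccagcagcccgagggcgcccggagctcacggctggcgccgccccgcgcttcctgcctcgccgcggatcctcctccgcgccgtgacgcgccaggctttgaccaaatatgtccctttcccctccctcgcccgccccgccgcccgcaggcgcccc
ENO3 (chr17:4950302-4950551, plus strand): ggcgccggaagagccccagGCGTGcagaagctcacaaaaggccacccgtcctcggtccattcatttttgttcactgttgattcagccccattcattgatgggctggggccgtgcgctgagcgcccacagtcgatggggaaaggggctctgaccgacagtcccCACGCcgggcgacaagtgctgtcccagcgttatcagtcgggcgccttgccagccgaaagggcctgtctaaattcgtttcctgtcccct
PGM1 (chr1:63593161-63593410, plus strand): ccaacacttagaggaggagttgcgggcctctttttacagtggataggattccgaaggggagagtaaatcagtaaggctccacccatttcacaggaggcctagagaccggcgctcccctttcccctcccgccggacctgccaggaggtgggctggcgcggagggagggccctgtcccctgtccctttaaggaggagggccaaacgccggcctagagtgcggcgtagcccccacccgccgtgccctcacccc
PC (chr11:66958384-66958633, minus strand): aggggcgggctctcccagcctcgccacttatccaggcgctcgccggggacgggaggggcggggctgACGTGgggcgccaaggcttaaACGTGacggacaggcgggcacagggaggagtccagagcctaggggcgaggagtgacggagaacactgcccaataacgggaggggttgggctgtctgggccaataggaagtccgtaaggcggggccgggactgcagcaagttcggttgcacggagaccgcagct

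The search also covered CACGTG, an E-box that MYC and the carbohydrate response factors can bind and that contains ACGTG, and TGATGNAA, the core of sites bound by ATF4. The HK2 promoter held ACGTG at positions -229 and -48, read on the minus strand, and GCGTG at -55 on the plus strand, counted in bases from the start. The PFKFB3 promoter held 1 match to GCGTG, that of ENO3 held 2 matches to GCGTG and that of PC held 2 matches to ACGTG, while that of PGM1 held none of the 4 motifs in this window. None of the 5 held CACGTG or TGATGNAA. RefSeq gave a promoter for 37 of the 40 genes. Among these 37, ACGTG was found in 12 (32.4%), against 18.7% of 27305 promoters of the same length. GCGTG was found in 13 (35.1%), against 31.9% of all promoters. CACGTG was found in 5 (13.5%), against 6.5%, and TGATGNAA in 1 (2.7%), against 3.2%. The 27305 promoters covered every gene for which RefSeq gave one, not only the genes measured on the arrays. They were not matched to the 37 for signal or base content, and no difference in share was tested. Of the 2 called-higher genes with a promoter, 1 held ACGTG and 2 held GCGTG. Of the 7 called-lower genes with a promoter, 3 held ACGTG and 3 held GCGTG. Whether these letters go with the direction of change was not tested.

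The pathway did not move as a block. A single transporter, SLC2A3, and the hexokinase HK2 rose more than 2-fold, and the muscle enolase ENO3 fell more than 2-fold. The kinase PDK3, the phosphoglucomutase PGM1 and pyruvate carboxylase (PC) fell by smaller steps. PFKFB2 was also called lower, but at only 1 of its 4 probe sets. Of the 40 genes, 11 (27.5%) were called, 3 higher and 8 lower, beside 29.8% of all genes. SLC2A3, HK2 and ENO3 were the 3 of 40 that were called and changed at least 2-fold, beside 3.74% of all genes. The 3 USP48 values lay entirely above or below the 3 empty vector values in 25 of the 40 genes (62.5%), beside 42.9% of all genes. The median difference of the 40 was -0.14, against 0.05 over all genes, with 26 differences below 0 and 14 above it. Over all genes, 8084 differences were below 0 and 11691 above it. These comparisons with all genes are not matched for signal. All genes averaging below 4 on the log2 scale had a median of 0.08, and only 5 of the 40 lay there. From 6 to 8 the median over all genes was -0.0085, with 24.0% called higher and 26.4% lower. From 8 to 10 it was -0.0081, and above 10 it was -0.0043.

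**Figure D1:**
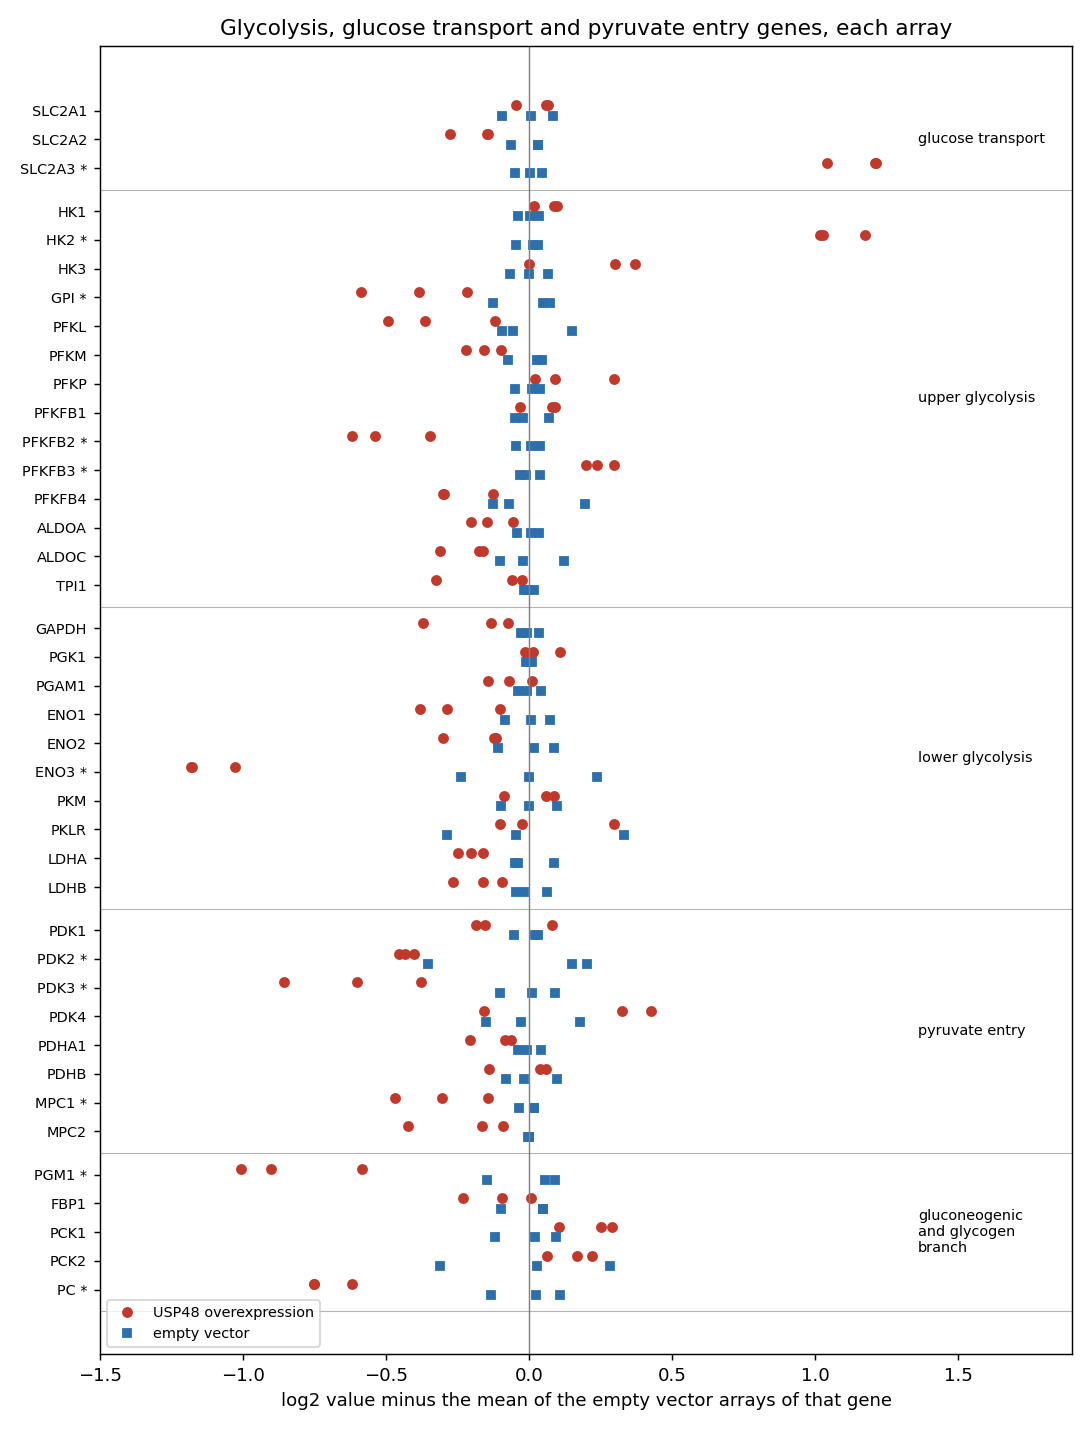
Log2 values of the 40 genes in each array, relative to the mean of the empty vector arrays of that gene; circles are the 3 USP48 overexpression arrays, squares the 3 empty vector arrays, and an asterisk marks the 11 called genes. SLC2A3 and HK2 stand about 1 log2 unit to the right and ENO3 about 1 log2 unit to the left, while most genes lie within 0.5 of their empty vector mean.

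Glucose transport was measured by 3 genes, of which 1 was called, beside 29.8% of all genes. SLC2A3 encodes GLUT3, a carrier with high affinity for glucose that is best known from neurons. It had log2 values of 7.65, 7.82 and 7.82 in the USP48 arrays, against 6.56, 6.65 and 6.61 in the empty vector arrays. The lowest USP48 array lay well above the highest empty vector array. The difference was 1.16 ± 0.09 (SE), or 2.23-fold higher, with an adjusted p of 6.12e-06. All 3 probe sets of SLC2A3 were called higher on their own, by 0.49 to 1.16, where 24.3% of all probe sets were called. SLC2A3 has a near-identical copy, SLC2A14, and its brightest probe set carries the mark for probes that may bind other transcripts, so signal of the copy may be part of this value.

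SLC2A1 encodes GLUT1, the carrier that most cells use, and was the transporter nearest to no difference. Its log2 values were 7.92, 7.82 and 7.93 in the USP48 arrays and 7.95, 7.87 and 7.77 in the empty vector arrays. The groups overlapped, with a difference of 0.03 (95% interval -0.16 to 0.22, adjusted p = 0.846). SLC2A2, which encodes GLUT2, the carrier of hepatocytes, was at the dim end of the array, with means of 1.15 in the USP48 arrays and 1.34 in the empty vector arrays. Its difference of -0.19 did not pass the test (adjusted p = 0.125).

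In upper glycolysis, from hexokinase to triose phosphate isomerase, 2 of 14 genes were called higher and 2 lower, beside 15.7% and 14.1% of all genes. The groups did not overlap in 9 of 14, beside 42.9% of all genes. HK2, the hexokinase that is scarce in normal hepatocytes and high in many tumours, changed most. It had log2 values of 7.55, 7.55 and 7.70 in the USP48 arrays, against 6.48, 6.54 and 6.56 in the empty vector arrays. Every USP48 array was about 1 log2 unit above every empty vector array. The difference was 1.07 ± 0.08 (SE), or 2.11-fold higher, with an adjusted p of 7.88e-06. Of its 3 probe sets 2 were called higher, and the remaining one was at 0.31 with overlapping groups. The mean of all its probe sets gave a smaller difference of 0.55, still past the threshold (adjusted p = 0.000562). The other hexokinases, HK1 at 0.07 and HK3 at 0.22, did not pass the test.

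The second step, GPI, which turns glucose phosphate into fructose phosphate, was called lower by 0.40 ± 0.11 (SE; adjusted p = 0.0186). Its log2 values were 9.27, 9.44 and 9.07 in the USP48 arrays and 9.73, 9.71 and 9.54 in the empty vector arrays, with no overlap. This call was lost without USP48 replicate 3 (-0.30, adjusted p = 0.0565), without empty vector replicate 1 (adjusted p = 0.0732) and without empty vector replicate 2 (adjusted p = 0.0696). None of the phosphofructokinase subunits passed the test at the brightest probe set. PFKL, the liver subunit, was at -0.32 (adjusted p = 0.0538), and its second, dimmer probe set was called lower by 0.40. PFKM was at -0.16 and PFKP at 0.14.

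The enzymes of the 4 PFKFB genes make and remove the fructose bisphosphate that activates phosphofructokinase. PFKFB2 was called lower and PFKFB3 higher, but PFKFB3 turned below 0 under another scaling. PFKFB2 had log2 values of 4.99, 4.72 and 4.80 in the USP48 arrays, against 5.34, 5.38 and 5.29 in the empty vector arrays. The groups did not overlap, and the difference was -0.50 ± 0.09 (SE; adjusted p = 0.00227). Its 3 other probe sets did not follow, at 0.26, 0.01 and 0.15 with none called, and the mean of all 4 was at -0.02 (adjusted p = 0.849). PFKFB3, the form with the highest kinase activity, was called higher by 0.24 ± 0.08 (SE; adjusted p = 0.0418). Its values were 6.72, 6.76 and 6.81 in the USP48 arrays and 6.49, 6.56 and 6.51 in the empty vector arrays. This call was lost when any of the 6 arrays was left out, with adjusted p of 0.0658 to 0.122, and the difference was -0.05 when the arrays were scaled on the hybridization controls.

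PFKFB1, the liver form, lay nearest to no difference in upper glycolysis. Its log2 values were 4.02, 4.01 and 3.90 in the USP48 arrays and 3.91, 3.88 and 4.00 in the empty vector arrays. The groups overlapped and the difference was 0.05 (95% interval -0.14 to 0.23, adjusted p = 0.72). PFKFB4 was at -0.24 and did not pass the test. The aldolases ALDOA (-0.13) and ALDOC (-0.22) and triose phosphate isomerase, TPI1 (-0.14), also did not pass, although their groups did not overlap.

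**Figure D2:**
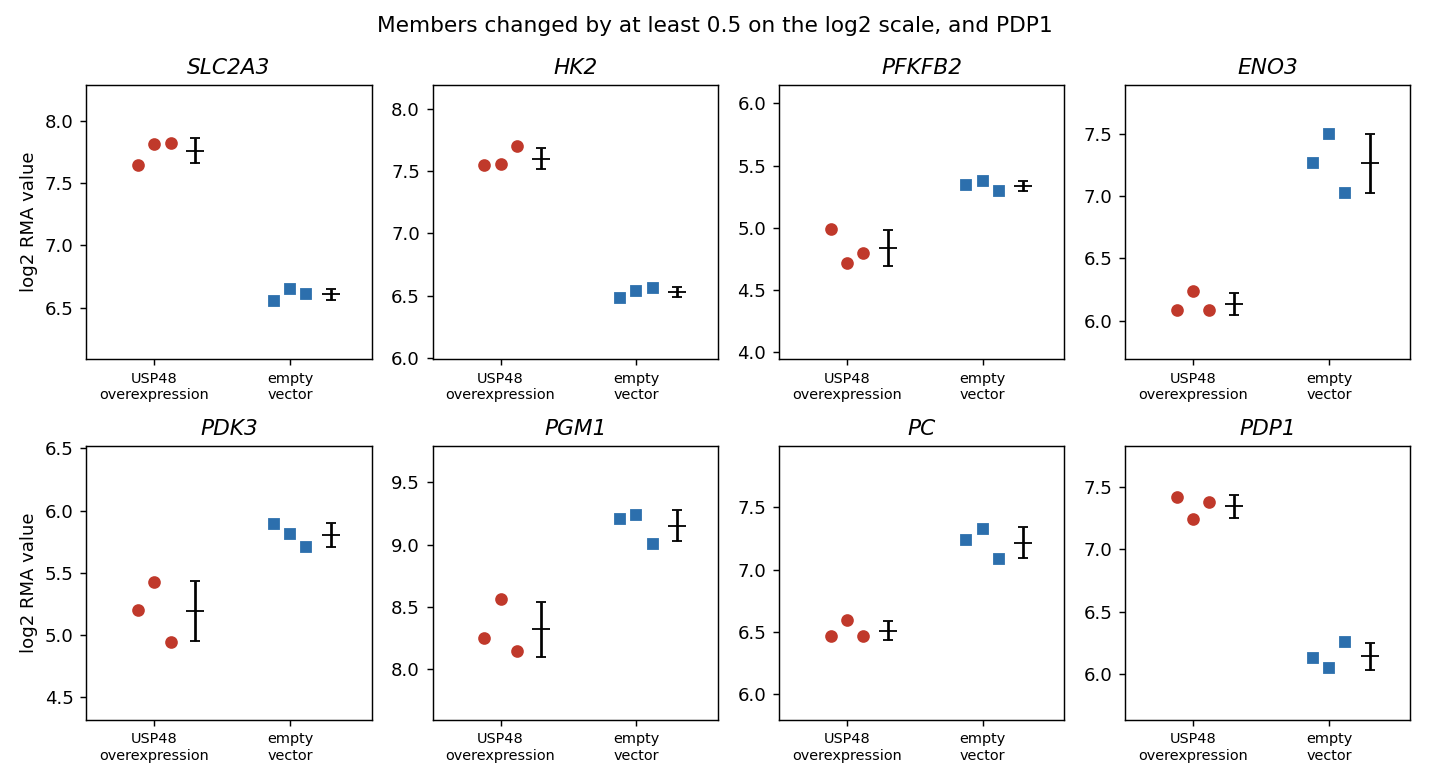
Log2 values of the 7 called genes that changed by at least 0.5, and of PDP1, in each array; every panel spans the same log2 range, points are arrays, and bars are the mean and SD of 3 arrays. The 2 groups do not overlap in any of the 8 panels, with SLC2A3, HK2 and PDP1 higher and the other 5 genes lower in the USP48 overexpression arrays.

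In lower glycolysis, from glyceraldehyde phosphate dehydrogenase to lactate dehydrogenase, 0 of 10 genes were called higher and 1 lower, beside 15.7% and 14.1% of all genes. The groups did not overlap in 6 of 10, beside 42.9% of all genes. The called gene was ENO3, the enolase of skeletal muscle. ENO3 had log2 values of 6.08, 6.23 and 6.08 in the USP48 arrays, against 7.26, 7.50 and 7.03 in the empty vector arrays. The groups were clearly apart, although the empty vector arrays spread more. The difference was -1.13 ± 0.12 (SE), or 2.19-fold lower, with an adjusted p of 5.28e-05. A second ENO3 probe set, near the dim end with means of 3.39 in the USP48 arrays and 3.37 in the empty vector arrays, was at 0.03. The mean of the 2 probe sets was at -0.55 and passed the test (adjusted p = 0.00201).

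ENO1, the main enolase of most cells, was at -0.26 (adjusted p = 0.0727). ENO2, the neuronal enolase, was at -0.18. PKM, the pyruvate kinase of tumours and most tissues, was the nearest to no difference. Its log2 values were 8.88, 8.86 and 8.71 in the USP48 arrays and 8.89, 8.80 and 8.70 in the empty vector arrays. The groups overlapped, with a difference of 0.02 (95% interval -0.18 to 0.22, adjusted p = 0.895). A second, dimmer PKM probe set was called lower by 0.31, so the 2 probe sets disagreed. PKLR, the pyruvate kinase of liver and red cells, was dim and at 0.06. The lactate dehydrogenases LDHA (-0.20, adjusted p = 0.094) and LDHB (-0.17) did not pass the test, although their groups did not overlap.

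GAPDH, which oxidises glyceraldehyde phosphate and is often used as a loading control, had log2 values of 12.7, 12.8 and 12.5 in the USP48 arrays, against 12.9, 12.9 and 12.8 in the empty vector arrays. All 3 USP48 values lay below all 3 empty vector values, replicate 3 most. The difference was -0.19 (95% interval -0.40 to 0.02, adjusted p = 0.17), and the 3 probe sets ranged from -0.25 to -0.17. The arrays also carry control probe sets for the 3′ end, the middle and the 5′ end of GAPDH, which were at -0.08, -0.36 and -0.46. The 5′ value minus the 3′ value, which falls when RNA is degraded or copied incompletely, was -0.51, -0.45 and -1.31 in the USP48 arrays and -0.32, -0.37 and -0.44 in the empty vector arrays. Replicate 3 of the USP48 arrays stood apart. The difference between the groups was -0.38 by a two-sided exact permutation test (p = 0.1, the lowest this design can reach) and was -0.10 without that replicate. The same measure for ACTB differed by -0.36 (exact p = 0.2). The part of this 5′ to 3′ gap in the small negative differences of the bright genes was not tested.

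**Figure D3:**
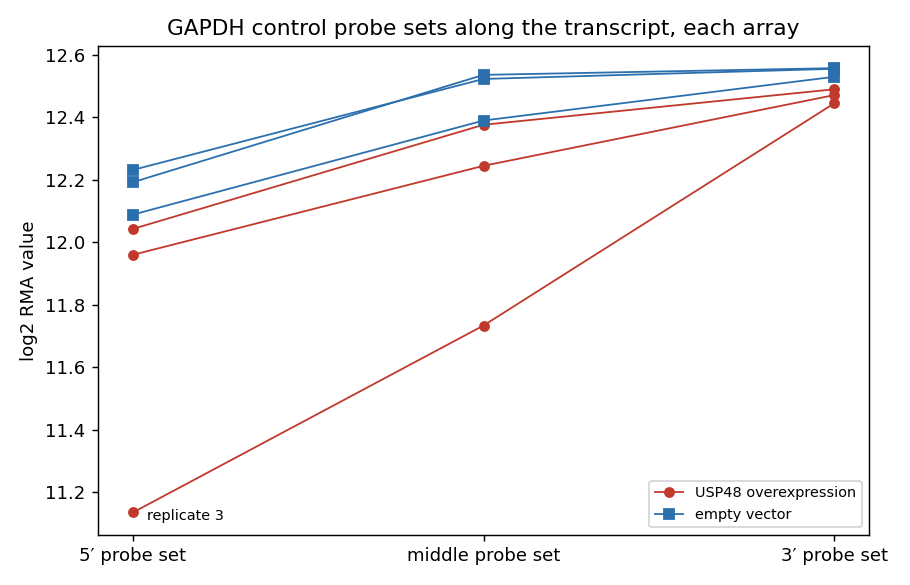
Log2 values of the 3 GAPDH control probe sets along the transcript in each array; circles are USP48 overexpression arrays and squares are empty vector arrays. The arrays lie close together at the 3′ end, between 12.4 and 12.6, and replicate 3 of the USP48 arrays drops to 11.1 at the 5′ end, where the other 5 arrays lie between 11.96 and 12.23.

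The 9 genes whose probe sets averaged above 10 on the log2 scale were ALDOA, TPI1, GAPDH, PGK1, PGAM1, ENO1, LDHA, LDHB and PDHA1. None of these 9 was called, although GAPDH, ENO1, LDHA and LDHB were called lower with the intensity trend and robust prior (adjusted p of 0.01 to 0.0414). Of the 9 differences 8 were below 0, with a range of -0.26 to 0.04 and a median of -0.14. Over all 678 genes above 10, 50.9% of differences were below 0 and the median was -0.0043, with 122 called higher and 104 lower. The probe sets of the 11 called genes averaged between 5.09 (PFKFB2) and 9.46 (GPI).

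In pyruvate entry 0 of 8 genes were called higher and 3 lower, beside 15.7% and 14.1% of all genes. The groups did not overlap in 5 of 8, beside 42.9% of all genes. The 3 called lower were the kinases PDK3 and PDK2, which switch the pyruvate dehydrogenase complex off, and the carrier subunit MPC1. PDK3 had log2 values of 5.20, 5.43 and 4.95 in the USP48 arrays, against 5.89, 5.81 and 5.70 in the empty vector arrays. All USP48 arrays were below all empty vector arrays, and they spread more. The difference was -0.61 ± 0.12 (SE), or 1.53-fold lower, with an adjusted p of 0.00312. All 5 of its probe sets were called lower, by 0.50 to 0.90.

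PDK2 had log2 values of 6.00, 5.97 and 5.95 in the USP48 arrays, against 6.56, 6.61 and 6.05 in the empty vector arrays. Replicate 3 of the empty vector arrays lay close to the USP48 arrays, although the groups did not overlap. The difference was -0.43 ± 0.13 (SE; adjusted p = 0.0338), and it was -0.61 without that replicate. The call was lost when any other array was left out, with adjusted p of 0.0725 to 0.137. The second PDK2 probe set was called lower by a like amount, 0.44, with no overlap (adjusted p over probe sets = 0.00606). Of the other kinases, PDK1, a target of hypoxia-inducible factors, was at -0.09, and PDK4, which rises on fasting, was at 0.20, with neither past the test.

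MPC1, which forms the mitochondrial pyruvate carrier with MPC2, had log2 values of 8.59, 8.42 and 8.75 in the USP48 arrays, against 8.91, 8.91 and 8.85 in the empty vector arrays. The groups did not overlap, and the difference was -0.31 ± 0.10 (SE; adjusted p = 0.0369). This call was lost when any array but USP48 replicate 3 was left out, with adjusted p of 0.0704 to 0.119, and the difference without that replicate was -0.39. MPC2 was at -0.23 (adjusted p = 0.117), also without overlap, and a dim second probe set was called lower by 0.88.

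Of the subunits of the first enzyme of the complex, PDHB was nearest to no difference. Its log2 values were 9.99, 10.01 and 9.81 in the USP48 arrays and 10.04, 9.87 and 9.93 in the empty vector arrays. The groups overlapped, with a difference of -0.01 (95% interval -0.22 to 0.19, adjusted p = 0.931). PDHA1 was at -0.12 (adjusted p = 0.332) at its brightest probe set and at -0.06 at the second, while another was called lower by 0.72. The level of the PDHA1 transcript therefore differed by probe set.

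In the gluconeogenic and glycogen branch 0 of 5 genes were higher and 2 lower, beside 15.7% and 14.1% of all genes. The groups did not overlap in 3 of 5, beside 42.9% of all genes. PGM1, which links glucose phosphate to glycogen, had log2 values of 8.25, 8.57 and 8.15 in the USP48 arrays, against 9.21, 9.24 and 9.01 in the empty vector arrays. The groups did not overlap. The difference was -0.83 ± 0.12 (SE), or 1.78-fold lower, with an adjusted p of 0.000415, from the only probe set of the gene. PC, which turns pyruvate into oxaloacetate at the start of glucose synthesis, had log2 values of 6.46, 6.60 and 6.47 in the USP48 arrays, against 7.24, 7.32 and 7.08 in the empty vector arrays. No USP48 array reached the lowest empty vector array. The difference was -0.71 ± 0.09 (SE), or 1.63-fold lower, with an adjusted p of 0.000236, again from 1 probe set.

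The dedicated enzymes of glucose synthesis did not pass the test. FBP1, which removes a phosphate from fructose bisphosphate, was nearest to no difference in this branch, with log2 values of 3.67, 3.81 and 3.91 in the USP48 arrays and 3.81, 3.95 and 3.96 in the empty vector arrays. The groups overlapped, and the difference was -0.11 (95% interval -0.31 to 0.10, adjusted p = 0.441). PCK1, the cytosolic phosphoenolpyruvate carboxykinase of liver, was near the dim end, at 1.62 in the USP48 arrays and 1.40 in the empty vector arrays (adjusted p = 0.113). The mitochondrial form, PCK2, overlapped between groups and was at 0.15.

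**Figure D4:**
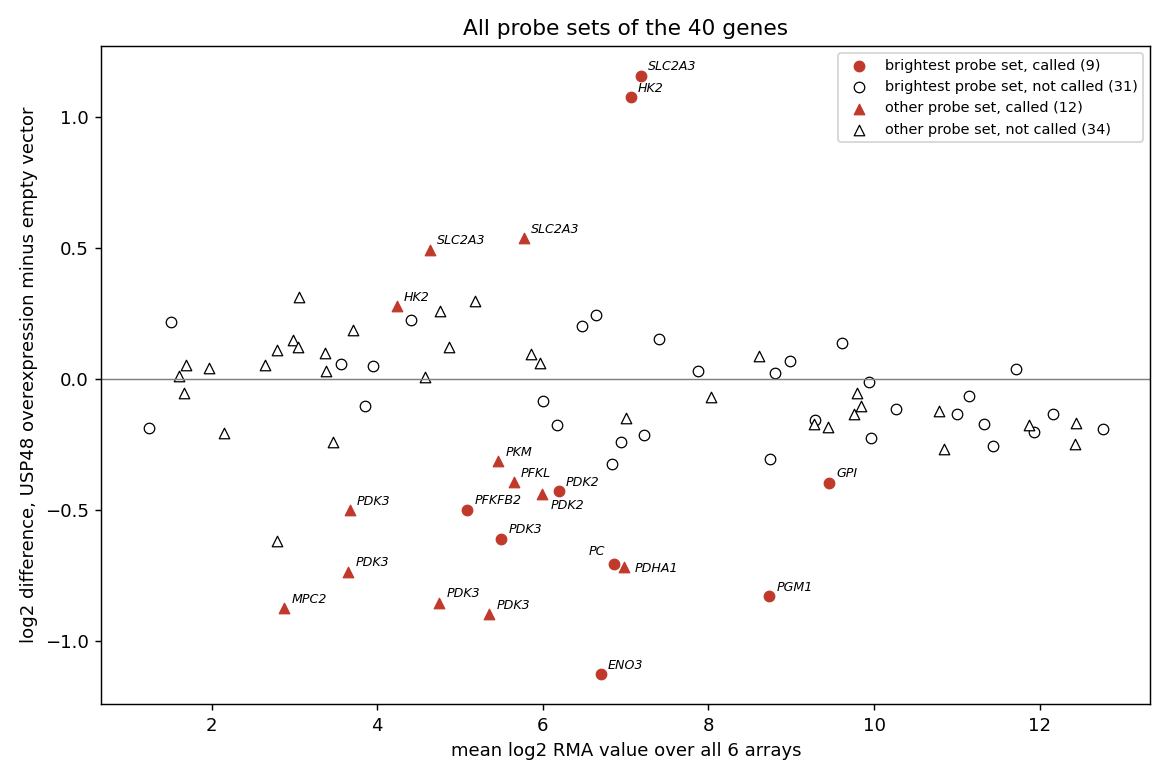
Log2 difference against the mean log2 value for all 86 probe sets that name 1 of the 40 genes; circles are the brightest probe set of a gene and triangles the others, and filled symbols passed the test over all probe sets. The 3 filled symbols of SLC2A3 and the 5 of PDK3 fall on 1 side of zero, and no symbol above 10 on the horizontal axis is filled.

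Across the 86 probe sets, 21 (24.4%) were called, 5 higher and 16 lower, beside 24.3% of all probe sets. The 5 called higher belonged to SLC2A3 and HK2 alone. No gene had probe sets called in both directions. Of the 46 probe sets that were not the brightest of their gene, 31 had the sign of the brightest, and 16 of the 25 genes with several probe sets had all of them on 1 side of zero. Another probe set was called for 4 genes that were not called by their brightest: PFKL, PKM, PDHA1 and MPC2.

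The medians of the stages were 0.03 for glucose transport, -0.14 for upper glycolysis, -0.18 for lower glycolysis, -0.17 for pyruvate entry and -0.11 for the gluconeogenic and glycogen branch, beside 0.05 over all genes. These medians depended on how the arrays were scaled. The hybridization controls, labelled RNAs added before hybridization, averaged 10.09 ± 0.10 in the USP48 arrays and 9.79 ± 0.04 in the empty vector arrays (log2, SD, n = 3 each). Scaling each array on them moved the median of all genes to -0.24 and the medians of the stages to between -0.47 and -0.27, so the sign of the transport median turned. Upper glycolysis was then at -0.43 and lower glycolysis at -0.47. The scaling shifts all genes of an array by the same amount. It therefore could not change where a stage lay relative to the median of all genes. SLC2A3 (0.86) and HK2 (0.78) stayed called higher and ENO3, PDK3, PGM1, PC and PFKFB2 stayed called lower under that scaling, while 25 of the 40 genes were then called lower, beside 37.9% of all genes.

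**Figure D5:**
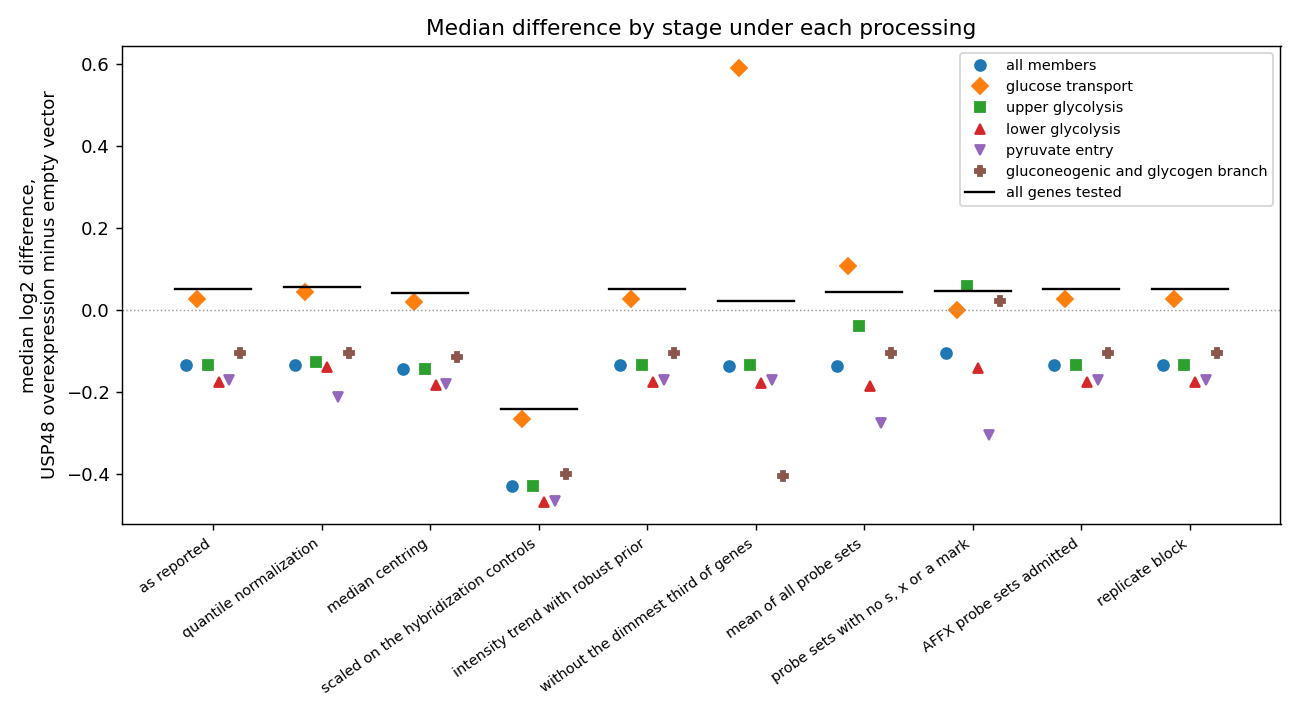
Median log2 difference of the genes of each stage, and of all 40 genes, under each processing tried; symbols are stages and the black bars are the median of all genes tested. Scaling on the hybridization controls lowers every median, the bar of all genes included. The median of all 40 genes lies below the bar under every setting shown, that scaling included.

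SLC2A3, HK2, ENO3, PDK3, PGM1 and PC kept their calls under each normalization, fit and choice of probe sets in which they were tested and with each array left out in turn. PFKFB2 lost its call in the mean of all probe sets, as given above, and kept it in the other 14 such settings. Every probe set of SLC2A3, and the only ones of PGM1 and PC, carry a mark for probes that may bind other transcripts. The choice of probe sets without such a mark therefore did not test these 3 genes. GPI, PFKFB3, PDK2 and MPC1 were the 4 whose calls rested on single arrays, and PDK2 also lost its call after quantile normalization (-0.37, adjusted p = 0.0516).

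Further genes of glucose metabolism were read from lists made by function. Of 17 other glycolysis and glucose transport genes, 3 were higher and 1 lower (23.5% called, beside 29.8% of all genes). SLC2A13, a proton and myo-inositol carrier, was higher by 1.39, although 1 of its 5 probe sets was called lower by 0.47 and its brightest probe set with no s, x or a mark, called unmarked here, was at 0.28 (adjusted p = 0.0771). Such a mark in the name of a probe set says that it may bind several transcripts. HKDC1, a hexokinase-like enzyme, was higher by 0.60 with all 4 probe sets called higher, and TIGAR, which removes fructose bisphosphate, was higher by 0.48 but at 0.19 (adjusted p = 0.259) when scaled on the hybridization controls. SLC2A5, the fructose carrier GLUT5, was lower by 0.67 at 1 of its 4 probe sets. The mean of the 4 was at -0.17 (adjusted p = 0.123) and its brightest unmarked probe set at 0.041.

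Of 7 other genes of the pyruvate dehydrogenase complex and lactate transport, 1 was higher and 1 lower (28.6% called, beside 29.8% of all genes). PDP1, the phosphatase that switches the complex back on and so opposes the PDK kinases, had log2 values of 7.42, 7.24 and 7.38 in the USP48 arrays, against 6.12, 6.04 and 6.25 in the empty vector arrays. The groups were far apart. The difference was 1.20 (2.31-fold higher, adjusted p = 6.81e-06), and both of its probe sets were called higher, by 1.07 and 1.20. PDPR, the regulatory subunit that lowers the activity of that phosphatase, was lower by 0.65 (adjusted p = 0.000997), with 2 of 3 probe sets called lower. Around the complex, the called changes were PDK3, PDK2 and PDPR, which were lower, and PDP1, which was higher. The call of PDK2 rested on single arrays, and the kinases PDK1 (-0.09) and PDK4 (0.20) did not pass the test. The other 5 genes of this list did not pass it at their brightest probe set. Among these, DLD had another probe set called lower (-0.79), SLC16A7 had 2 of 5 called lower, and DLAT had 1 of 3 called higher.

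In the list of 15 other glycogen and gluconeogenesis genes, 3 were higher and 3 lower, beside 15.7% and 14.1% of all genes. PPP1R3B, which brings a phosphatase to glycogen and favours glycogen synthesis in liver, had log2 values of 6.33, 6.45 and 6.78 in the USP48 arrays, against 4.81, 5.08 and 4.85 in the empty vector arrays. The groups did not overlap, and the difference was 1.61 (adjusted p = 7.2e-06) with 2 of its 3 probe sets called higher. PGM2, a second phosphoglucomutase, was higher by 0.44. The liver glycogen phosphorylase PYGL was lower by 0.42 and the brain form PYGB was higher by 0.34. Scaled on the hybridization controls, PGM2 was at 0.15 (adjusted p = 0.328) and PYGB at 0.051 (adjusted p = 0.718).

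The pentose phosphate pathway branches off at glucose phosphate and returns to glycolysis. Of its 7 genes measured, 1 was higher and 3 lower (57.1% called, beside 29.8% of all genes). The returning enzymes transketolase (TKT, -0.52) and transaldolase (TALDO1, -0.40) and the epimerase RPE (-0.46) were lower, and H6PD of the endoplasmic reticulum was higher by 0.34. For RPE, 1 of its 4 probe sets was called and their mean was at -0.066 (adjusted p = 0.538). The brightest unmarked probe set of TKT was at -0.015, H6PD was at 0.042 when scaled on the hybridization controls, and TALDO1 lost its call without some single arrays, among them USP48 replicate 3 (-0.27, adjusted p = 0.0979).

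Of 13 regulators of glycolytic genes, 4 were higher and 5 lower (69.2% called, beside 29.8% of all genes). MYC, which activates many glycolytic genes, was higher by 0.71 (9.20, 9.33 and 8.89 in the USP48 arrays, against 8.42, 8.37 and 8.50 in the empty vector arrays). TXNIP, a glucose-induced protein that lowers glucose uptake, was higher by 0.88, with all 3 probe sets called higher. ATF4, a factor of the stress response, was higher by 0.82. SIRT6, a deacetylase that represses glycolytic genes, was higher by 0.27 (adjusted p = 0.0468) but at -0.02 when scaled on the hybridization controls, and its call was lost when any array but USP48 replicate 3 was left out (adjusted p of 0.0713 to 0.144).

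HIF1A, the oxygen-regulated factor that drives glycolytic genes, was at 0.28 and did not pass the test (adjusted p = 0.101), although its groups did not overlap. It passed with the intensity trend and robust prior (adjusted p = 0.0479) and with the replicate number as a block (adjusted p = 0.0386). Its partner ARNT was lower by 0.77, with 3 of 7 probe sets called lower. EPAS1 was at -0.12 at its brightest probe set and did not pass the test, while 1 of its 3 probe sets was called higher. Among the glucose-responsive factors MLXIPL was lower by 0.36 and MLXIP by 0.37, and for MLXIP another probe set was called higher by 0.46. Both calls were lost without some single arrays, among them empty vector replicate 2 (adjusted p = 0.131 for MLXIPL and 0.115 for MLXIP), and that of MLXIPL after quantile normalization (adjusted p = 0.0718). FOXK1, which favours glycolysis, was lower by 0.53, again with another probe set called higher by 0.46, and the mean of its probe sets was at -0.0068. FOXK2 was at 0.03 at its brightest probe set, with 2 of 7 probe sets called lower, and its brightest unmarked probe set was at -0.51 (adjusted p = 0.00687). PPARGC1A, which favours mitochondrial oxidation, was lower by 0.52, while the mean of its probe sets was at -0.16 (adjusted p = 0.165). ARRDC4 was at -0.33 (adjusted p = 0.0565).

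Of 10 hypoxia-induced genes outside glycolysis, 5 were higher and 0 lower, beside 15.7% higher and 14.1% lower over all genes. Among those not called, BNIP3L and EGLN3 each had another probe set called lower, at -0.98 and -0.47. BNIP3 and EGLN1, also not called, had other probe sets called higher. ADM, a vasodilator peptide, was higher by 1.07, with log2 values of 9.90, 9.87 and 9.91 in the USP48 arrays, against 8.85, 8.81 and 8.81 in the empty vector arrays. VEGFA, the angiogenic factor, was higher by 1.04, with all 4 probe sets called higher. ANKRD37 was higher by 0.57 and the histone demethylase KDM3A by 0.33. Scaled on the hybridization controls, ANKRD37 was at 0.28 (adjusted p = 0.0503) and KDM3A at 0.039 (adjusted p = 0.777), neither still past the threshold, and ADM and VEGFA kept their calls.

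Markers of other cell types moved in part with these results. The summed linear signal of 6 fibroblast markers was 289 to 320 in the USP48 arrays and 464 to 498 in the empty vector arrays, so the groups did not overlap. Within that list of 6, LUM was lower by 1.35 and DCN by 1.14, beside 14.1% of all genes called lower. For DCN 4 of 7 probe sets were called lower, and for LUM 1 of 2. The brightest unmarked probe sets put LUM at -0.20 and DCN at -0.26, neither past the threshold. The other 4 genes did not pass the test. Among these, COL1A1 had 1 of 5 probe sets called lower and ACTA2 had 1 of 3 called higher. COL1A1 averaged 7.33 in the USP48 arrays and 7.62 in the empty vector arrays on the log2 scale. Of 5 epithelial markers 2 were lower, beside 14.1% of all genes, EPCAM by 0.42 and CDH1 by 0.38. The mean of the CDH1 probe sets was at -0.22 (adjusted p = 0.0637). The summed epithelial signals overlapped, at 4614 to 5985 in the USP48 arrays and 5139 to 5838 in the empty vector arrays. Of 5 leukocyte markers 0 were called, beside 29.8% of all genes, although ITGAM had 1 of 2 probe sets called higher. PTPRC, the defining leukocyte marker, was dim, with means of 1.88 in the USP48 arrays and 1.96 in the empty vector arrays. The summed leukocyte signal was 53.9 to 67.3 in the USP48 arrays and 50.1 to 53.5 in the empty vector arrays, so these groups narrowly did not overlap. That of the hepatocyte markers overlapped, at 160.0 to 171 in the USP48 arrays and 142 to 173 in the empty vector arrays. The part of such markers in the changes of the glycolytic genes was not tested.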

How the data were processed

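Expression of total RNA was measured on 6 Affymetrix arrays, 3 per group, with groups and replicate numbers taken from the titles. The deposited values are log2 values, 1 per probe set and array, which the authors obtained by RMA, per the submitters' processing notes. The version, settings and background correction were not given in the sources used here. RMA brings arrays to a like distribution, though the deposited arrays differed slightly in median and range. The number of arrays limits the precision, no detection calls were used, 0 value columns were left unused and 0 arrays were identical.

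The array holds 54675 probe sets. By the platform annotation 41091 name a single gene, 1801 several genes and 11721 none, and 62 are controls. A RefSeq table of GRCh38.p14 matched 41037 of the single-gene probe sets by gene ID and changed 0 symbols. The brightest probe set by mean over all 6 arrays stood for each of 19775 genes, of which 10523 had several. Of 105 further genes in the lists, 93 were measured, and the others were not analysed here. No further normalization or filter was applied.

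The comparison used R 4.3.3 and limma 3.58.1, with a two-sided moderated test per gene, Benjamini-Hochberg adjustment over the 19775 genes and a threshold of 0.05, and was tested on simulated data. Probe sets were adjusted over all probe sets of the array. The 5′ to 3′ measures were compared by an exact permutation test. Intervals are 95% intervals of the fit. Promoter letters were searched in Python 3.11.15, and figures were drawn with matplotlib 3.10.9.

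The 40 genes and all lists were chosen with earlier results of these data known, and so was the scaling on 18 hybridization control probe sets. Values in every array were given for USP48, for called genes that changed by at least 0.5, for GAPDH and for the gene nearest to 0 in each stage. Values in every array of other genes were added after their values were seen. Of each further list, up to 4 called genes with the largest differences were named, or every regulator. The alternatives were quantile normalization, median centring, scaling on the hybridization controls, a robust prior with an intensity trend, removal of the dimmest 33.3% of genes, the mean of all probe sets, probe sets with no s, x or a mark, control probe sets admitted, the replicate block, each array left out, an adjusted p under 0.01 and a limit of 1.5-fold.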

Additional observations from a re-analysis of the deposited data

Results flagged for a closer look

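Beside the probe sets that name SLC2A3 alone, 2 probe sets of the array name both SLC2A14 and SLC2A3 and were left out of the comparison of genes. Both were higher in all 3 USP48 overexpression arrays than in all 3 empty vector arrays, which is why they are given here. One differed by 1.07 on the log2 scale and the other by 0.51, and both were called over all probe sets (adjusted p = 2.09e-05 and 0.00483, limma). The 3 probe sets of SLC2A3 differed by 0.49 to 1.16. How much of the signal came from SLC2A3 and how much from SLC2A14 was not tested.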

How the results depend on the processing

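The median of all 40 genes was negative under every setting run, between -0.15 and -0.11, except for -0.43 when arrays were scaled on the hybridization controls. That scaling gave stage medians of -0.27 for transport, -0.43 for upper glycolysis, -0.47 for lower glycolysis, -0.47 for pyruvate entry and -0.40 for the gluconeogenic and glycogen branch. Under it 25 of the 40 genes were called lower, and 11.3% of the 8452 genes called were higher, against 52.6% of 5897 as reported. It turned PFKFB3 to -0.049 (adjusted p = 0.709) and SIRT6 to -0.024 (adjusted p = 0.878). Stage medians also moved without the dimmest 33.3% of genes (transport 0.59, gluconeogenic and glycogen branch -0.41) and with the mean of all probe sets (transport 0.11, upper glycolysis -0.039, pyruvate entry -0.28). With probe sets with no s, x or a mark, which leave 25 of the 40 genes, they were 0.057 for upper glycolysis, -0.31 for pyruvate entry and 0.022 for the gluconeogenic and glycogen branch, with 1 gene called higher. That choice put SLC2A5 at 0.041 (adjusted p = 0.792), RPE at 0.18 (0.148) and FOXK2 at -0.51 (0.00687), and the mean of all probe sets put MLXIP at 0.0077 (0.953). For these reversals the cause was not tested, beyond the use of other probe sets.

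Counts of genes called lower were 14 with an intensity trend and robust prior (PFKL, GAPDH, ENO1, LDHA, LDHB and MPC2 added), 5 at an adjusted p under 0.01, 4 with a limit of 1.5-fold and 5 to 8 with 1 array left out, where fewer samples were tested. The genes called over the whole array were 3847 at an adjusted p under 0.01 and 2210 with the limit of 1.5-fold. The replicate block gave 2 genes higher and 8 lower, a median of -0.14 and 5824 genes called in all, and PFKFB3 (adjusted p = 0.0578) and MPC1 (0.0524) lost their calls. Arrays of the same number correlated in their deviations at 0.0042, 0.17 and 0.015, and arrays of different numbers at -0.12 to 0.11. These values cannot settle whether the numbers pair the samples. The GAPDH 5′ minus 3′ difference ranged from -0.53 to -0.10 with 1 array left out. For dim probe sets such as those of SLC2A2 and PCK1 no detection call was used.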
